A study of Homo sapiens with 6 samples.

Results

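The genes described here are 42 genes of mitosis and chromosome segregation, out of 21134 genes that the deposited series table lists. They were chosen by name, for what their products do in dividing cells, at a time when earlier results of these data were known. All 42 were found under their symbols in that table. They were sorted into mitotic cyclins and CDK1 (5 genes), mitotic kinases with the partners of the Aurora kinases (6), the spindle checkpoint (4), the trigger of anaphase (3), kinetochore and centromere (5), condensin, topoisomerase and the chromosome surface (7), spindle motors and microtubule proteins (7), and the central spindle and cytokinesis (5).

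RNA was sequenced from 6 libraries of cardiomyocytes differentiated from H9, which the labels and the study call hiPSC-CMs, although H9 was made from an embryo and is not an induced line. The control group (2 libraries) received no treatment according to the labels. The alcohol group (2 libraries) received 100 mM alcohol for 24 h, and the co-treated group (2 libraries) received 100 mM alcohol together with 1 μM losartan, a blocker of the angiotensin receptor AT1R, for 24 h. All 6 libraries come from that 1 line, and nothing in the labels says whether the replicates were separate cultures, so the p-values below measure the spread between these libraries, which may be technical.

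To divide, a cell activates CDK1 with its B-type cyclins, condenses its chromosomes, attaches each kinetochore to the spindle and cuts the cell body along the central spindle. The spindle checkpoint delays the separation of sister chromatids until every chromosome is attached, and it does so by holding back the anaphase-promoting complex (APC/C). The genes for this machinery are switched on together late in the cell cycle and are low in resting cells. Cardiomyocytes largely leave the cell cycle as they mature, whereas stem cell-derived cardiomyocytes are immature and their cultures can still hold dividing cells. In bulk RNA, fewer dividing cells and less of each transcript per dividing cell cannot be told apart.

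Genes of this phase are known to share promoter elements, so the promoter letters of 4 members are shown first. A pair of letter patterns is known for genes of this phase. The cell cycle genes homology region (CHR, searched as TTTGAA or TTCGAA) is bound by the DREAM and MuvB complexes, and the CCAAT box is bound by NF-Y. Promoters were taken from RefSeq (GRCh38.p14) as the 250 bases before to the 50 bases after each gene's start, and 36 of the 42 members were matched. AURKA, BIRC5, BUB3, TPX2, TTK and UBE2C had no match. Below are the 200 bases just before the start, 5′ to 3′ on the strand of the gene, in lower case with CHR and CCAAT letters of either strand in capitals. They are shown because they cover CHR letters close to the start with CCAAT boxes upstream (CCNB2, PLK1), a promoter where both patterns share letters (MKI67) and one with CCAAT boxes and none of the CHR letters searched (CCNB1). Letters other than TTTGAA and TTCGAA were not searched for the CHR.
CCNB2, cyclin B2, chr15:59104946-59105145, plus strand: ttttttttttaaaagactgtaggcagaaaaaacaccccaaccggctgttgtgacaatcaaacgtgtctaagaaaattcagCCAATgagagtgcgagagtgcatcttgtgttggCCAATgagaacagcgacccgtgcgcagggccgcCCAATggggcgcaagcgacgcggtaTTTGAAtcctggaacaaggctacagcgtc
PLK1, polo-like kinase 1, chr16:23678689-23678888, plus strand: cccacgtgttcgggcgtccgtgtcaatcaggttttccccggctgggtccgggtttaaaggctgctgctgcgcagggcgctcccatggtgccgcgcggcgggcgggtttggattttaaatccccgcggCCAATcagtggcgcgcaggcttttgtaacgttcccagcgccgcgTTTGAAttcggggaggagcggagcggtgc
MKI67, the Ki-67 protein that coats mitotic chromosomes, chr10:128126424-128126623, minus strand: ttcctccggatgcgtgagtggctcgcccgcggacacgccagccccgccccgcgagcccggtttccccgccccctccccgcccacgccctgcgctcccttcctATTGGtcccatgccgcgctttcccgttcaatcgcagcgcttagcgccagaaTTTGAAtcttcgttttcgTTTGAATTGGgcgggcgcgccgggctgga
CCNB1, cyclin B1, chr5:69166950-69167149, plus strand: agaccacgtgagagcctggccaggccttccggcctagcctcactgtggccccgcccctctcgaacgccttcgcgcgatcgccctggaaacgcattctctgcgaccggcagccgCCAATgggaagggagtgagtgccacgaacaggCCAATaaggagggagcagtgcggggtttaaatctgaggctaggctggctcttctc

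In CCNB2 the CHR letters began 29 bases before the start, and the CCAAT boxes nearest to it began 120, 87 and 54 bases before the start, 33 bases apart. PLK1 also had its CHR letters 29 bases before the start, with a CCAAT box at 73. MKI67 had CHR letters at 47 and 29 bases before the start. CCNB1 had CCAAT boxes at 87 and 55 bases, 32 apart.

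CHR letters were present in 27 of the 36 member promoters, 75%, compared with 11.6% of the 11766 promoters of genes tested here and 16.6% of all 27305 promoters in the table. At least 1 CCAAT box was present in 27 members, also 75%, compared with 36.3% and 35.7%. Both CHR letters and 2 or more CCAAT boxes were present in 14 members, 38.9%, compared with 1.64% of tested genes and 1.98% of all promoters. The CHR letters lay within the 50 bases before the start in 13 members and within the 50 bases after it in 7. E2F letters (TTTCGCGC, TTTGGCGC or TTTCCCGC) were present in 3 members, 8.33%, compared with 4.38% of tested genes. Among genes of DNA replication, used as a comparison, the order was the other way, with E2F letters in 57.7% and CHR letters in 7.69% of 26 promoters. CCAAT boxes were common in the replication genes too, with at least 1 in 65.4% of these promoters. At least 2 were present in 38.5% of them, compared with 50% of the members and 13.2% of tested genes. These are matches of letters on either strand and not measured binding.

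The libraries were of even depth, with summed expected counts of 4898287 to 5051448, so that 3 counts correspond to 0.594 to 0.612 CPM (counts scaled to the library total). That limit covers counting error only. No member came near it, since the lowest count of any member in any library was 31 and the highest 1617. The label of the cells was checked against cardiomyocyte markers, of which TNNT2, cardiac troponin T, lay between 3194 and 3728 FPKM in all libraries. The summed CPM of the 12 cardiomyocyte markers lay between 49818 and 53980 in control, 46667 and 55793 in alcohol, and 51108 and 51598 in the co-treated libraries. Single markers were less even. MYL2 ranged from 821 to 2862 FPKM and MYH6 from 305 to 737, while TTN stayed between 148 and 166. The median marker stood at 633 and 615 FPKM in control, 642 and 585 in alcohol, and 502 and 437 in the co-treated libraries. In co-treated against control, 8 of the 12 had a lower fitted level and 4 a higher one.

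The 42 genes were clearly expressed in these cardiomyocyte cultures. Levels between genes are compared on FPKM, in which the expected count is scaled to transcript length and sequencing depth. Averaged over the 6 libraries, the lowest member was NCAPH, a condensin subunit, at 2.86 FPKM and the highest was PTTG1, the securin that restrains separase, at 56.3 FPKM. The median member stood at 13.9 FPKM, the 75.9th percentile of all listed genes, and 41 of the 42 lay above the median gene.

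A single library held the top of the range for nearly every member. On the log2 CPM scale with TMM factors, control replicate 2 was the highest of the 6 libraries in 39 of the 42 genes, compared with 17.4% of all genes tested, and alcohol replicate 1 was the lowest in 37, compared with 13.7%. Without TMM factors, the members' CPM summed to 2174 and 3738 in the control libraries, 1644 and 2147 in the alcohol libraries, and 2970 and 2412 in the co-treated libraries. In these sums control replicate 1 lay just above alcohol replicate 2 and below both co-treated libraries. With TMM factors the median member stood at a log2 CPM of 5.45 in control replicate 1 and 5.34 in alcohol replicate 2. Control replicate 2 exceeded control replicate 1 in all 42 genes, by a median of 1.74-fold, and 34 members differed by more than 1.5-fold between these untreated libraries. The gap was smallest for BUB3 (0.10 on the log2 scale) and largest for BIRC5 (1.19). The replicates of the other groups also differed in a shared direction, with alcohol replicate 2 above replicate 1 in 38 members and co-treated replicate 1 above replicate 2 in 36.

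**Figure D1:**
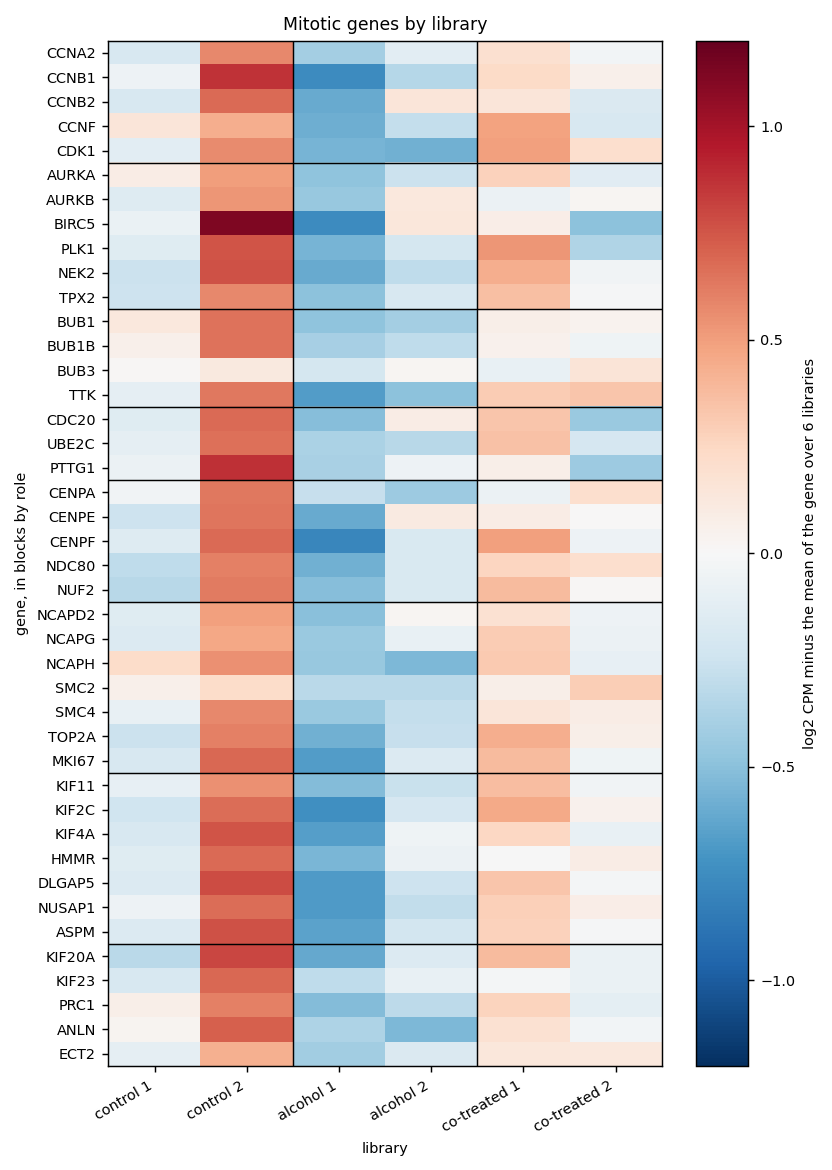
Heat map of the 42 genes (rows, by role) in the 6 libraries (columns), coloured by log2 CPM minus the gene's mean over the libraries. Control replicate 2 is the highest library in 39 genes and alcohol replicate 1 the lowest in 37.

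The comparison of alcohol with control asks what alcohol does to these cells. All 42 members had a lower fitted level in alcohol, compared with 50.6% of all 14926 genes tested, and the median log2 fold change was −0.70, compared with −0.0033 over all genes. None passed edgeR's quasi-likelihood test at an adjusted p under 0.05, where 0.067% of all genes did. At an unadjusted p under 0.05, 34 of the 42 were lower, compared with 5.78% of all genes, and in 23 both alcohol libraries lay below both control libraries in CPM, compared with 21.8%. The adjusted p ran from 0.0659 for BUB1 to 0.753 for BUB3 by edgeR, and DESeq2 called 3 members (ANLN, BUB1 and PRC1). The number of all genes that DESeq2 called is given in the closing section. On the same scale the 2 control libraries differed from each other by a median of 0.80, with all 42 higher in replicate 2. The size of the difference between alcohol and control rested on control replicate 2. Without it the median was −0.19, with 37 of 42 lower and 6 at an unadjusted p under 0.05. Without control replicate 1 the median was −1.01. Without alcohol replicate 1 it was −0.50, with all 42 lower and 12 at an unadjusted p under 0.05.

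The cyclins and CDK1 held the member with the largest difference. CCNB1, the cyclin that drives entry into mitosis with CDK1, read 25.4 and 49.7 FPKM in control, 15.8 and 22.3 in alcohol, and 33.0 and 28.7 in the co-treated libraries. Both alcohol libraries lay below both controls and the co-treated libraries lay between the controls. Its log2 fold change of −1.02 ± 0.24 (SE) was the largest among the members, with an adjusted p by edgeR of 0.147. CDK1 itself, the kinase of mitotic entry, read 23.0 and 38.2 FPKM in control, 17.2 and 17.8 in alcohol, and 37.5 and 29.8 in the co-treated libraries. The alcohol libraries lay close together and below all others, and the log2 fold change was −0.84 ± 0.20 (adjusted p by edgeR 0.147). The other cyclins were CCNF (−0.75), CCNA2 (−0.51) and CCNB2 (−0.50), on the log2 scale, of which CCNB2 did not reach an unadjusted p of 0.05.

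Among the kinases and the Aurora partners, BIRC5 (survivin, the subunit that brings Aurora B to the centromere) spread widely within groups. It read 16.4 and 38.4 FPKM in control, 10.3 and 20.3 in alcohol, and 19.3 and 12.7 in the co-treated libraries, so that control replicate 1 lay below alcohol replicate 2. The log2 fold change was −0.89 ± 0.34 (adjusted p by edgeR 0.344). PLK1, which acts on centrosomes, kinetochores and cytokinesis, read 8.46 and 16.3 FPKM in control, 6.39 and 8.63 in alcohol, and 14.4 and 7.55 in the co-treated libraries, with control replicate 1 and alcohol replicate 2 almost level. AURKB, the kinase that corrects faulty attachments, had among the smallest differences (−0.38 ± 0.30, adjusted p by edgeR 0.705), with 7.38 and 12.5 FPKM in control, 6.0 and 10.6 in alcohol, and 8.32 and 8.70 in the co-treated libraries. TPX2, the activator of Aurora A, was the most abundant of these genes at 32.7 ± 13.3 FPKM in control, 22.9 ± 4.24 in alcohol and 32.9 ± 6.57 in the co-treated libraries (SD, n = 2). AURKA (−0.69), the kinase of the spindle poles, and NEK2 (−0.80), a kinase of centrosome separation, were lower in CPM in both alcohol libraries than in both controls.

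The spindle checkpoint held the member with the lowest adjusted p. BUB1, a checkpoint kinase at the kinetochore, read 25.3 and 37.3 FPKM in control, 16.7 and 18.7 in alcohol, and 25.7 and 24.7 in the co-treated libraries. The alcohol libraries lay below the other 4, and the log2 fold change was −0.86 ± 0.16 (adjusted p by edgeR 0.0659, range over the alternatives 0.00445 to 0.327). Its partner BUB1B, which holds back the APC/C, read 13.5 and 20.8 FPKM in control, 9.90 and 11.2 in alcohol, and 14.2 and 12.9 in the co-treated libraries, and differed by −0.74 ± 0.18. TTK, the kinase that starts checkpoint signalling, read 6.48 and 11.2 FPKM in control, 4.39 and 5.27 in alcohol, and 9.12 and 9.15 in the co-treated libraries (−0.91 ± 0.24, adjusted p by edgeR 0.170). BUB3, which brings BUB1 and BUB1B to the kinetochore, had the smallest difference of all members (−0.15), with 27.9 and 31.9 FPKM in control, 24.4 and 29.8 in alcohol, and 26.1 and 29.98 in the co-treated libraries.

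PTTG1, an inhibitor that the APC/C destroys at anaphase, read 50.9 and 98.2 FPKM in control, 40.2 and 52.8 in alcohol, and 57.3 and 38.3 in the co-treated libraries. Its groups overlapped, and its lowest library was co-treated replicate 2, alone among the members. UBE2C, the ubiquitin-conjugating enzyme of the APC/C, stood at 33.4 ± 13.3 FPKM in control, 20.9 ± 1.24 in alcohol and 29.3 ± 8.05 in the co-treated libraries (SD, n = 2). It had a log2 fold change of −0.70 ± 0.26 and CDC20, the APC/C activator, one of −0.51 ± 0.30, which did not reach an unadjusted p of 0.05.

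**Figure D2:**
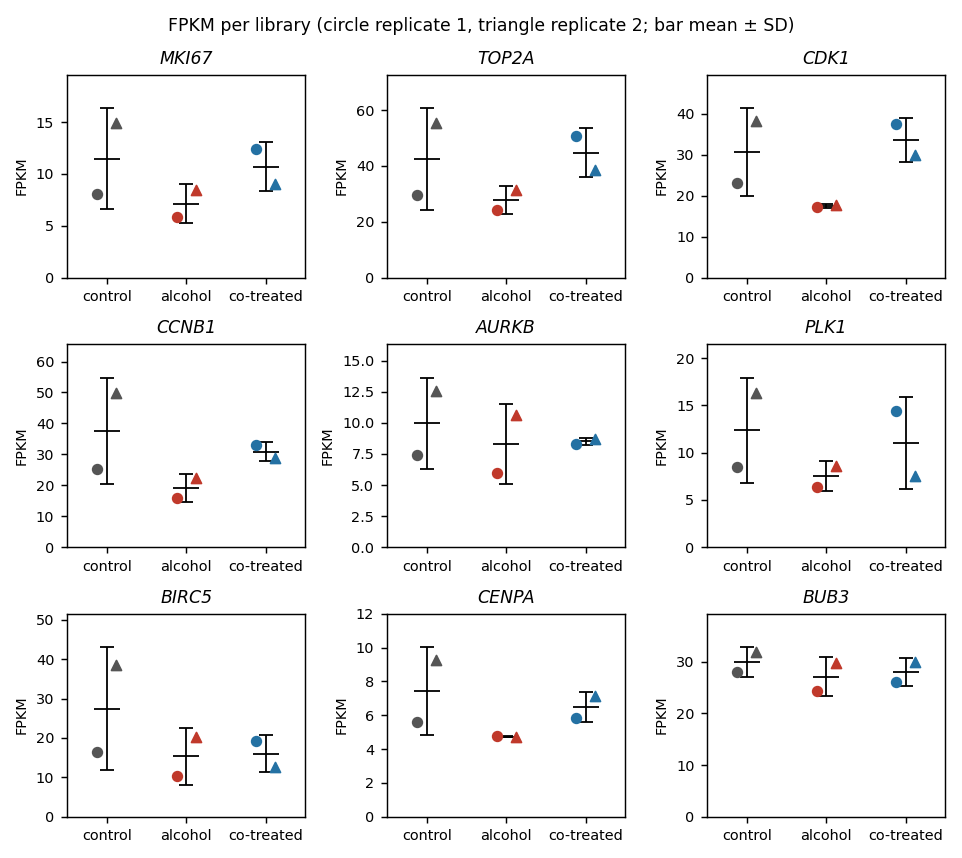
FPKM of 9 members in each library (points), with the mean and SD of the 2 libraries of each group. For CDK1 both alcohol libraries (17.2 and 17.8 FPKM) lie below all the others, and for BUB3 the 3 groups overlap.

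At the kinetochore and centromere, CENPF, a large kinetochore protein, read 10.0 and 18.3 FPKM in control, 6.54 and 10.5 in alcohol, and 16.5 and 11.1 in the co-treated libraries (−0.77 ± 0.26 on the log2 scale). CENPA, the histone variant that marks the centromere, read 5.59 and 9.25 FPKM in control, 4.75 and 4.73 in alcohol, and 5.86 and 7.11 in the co-treated libraries (−0.72 ± 0.31). Both alcohol libraries lay below the other 4 for CENPA. For CENPF, alcohol replicate 2 lay above control replicate 1 in FPKM but slightly below it in CPM with TMM factors. NDC80 and NUF2, the pair that grips the microtubule, differed by −0.60 and −0.58. NDC80 read 7.98 and 15.5 FPKM in control, 6.64 and 9.24 in alcohol, and 12.5 and 11.8 in the co-treated libraries. NUF2 read 7.98 and 16.4 FPKM in control, 7.16 and 9.90 in alcohol, and 14.2 and 10.7 in the co-treated libraries. For both, alcohol replicate 2 lay above control replicate 1, and CENPE, a kinetochore motor, differed by −0.47 (unadjusted p by edgeR 0.0937).

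TOP2A, the topoisomerase that untangles sister chromatids, read 29.7 and 55.3 FPKM in control, 24.2 and 31.5 in alcohol, and 50.9 and 38.6 in the co-treated libraries, a log2 fold change of −0.65 ± 0.22. MKI67 read 8.02 and 14.9 FPKM in control, 5.80 and 8.49 in alcohol, and 12.4 and 9.03 in the co-treated libraries (−0.71 ± 0.24), and its alcohol and control libraries overlapped. SMC4, a condensin ATPase, stood at 29.2 ± 9.88 FPKM in control, 19.2 ± 2.37 in alcohol and 26.9 ± 1.00 in the co-treated libraries (SD, n = 2), a difference of −0.65 ± 0.18. Its partner SMC2, at 9.59 and 11 FPKM in control, 7.43 and 7.92 in alcohol, and 10.3 and 11.8 in the co-treated libraries, had alcohol libraries below both controls and varied less between the control libraries (1.12-fold) than any member but BUB3. NCAPH read 3.13 and 4.01 FPKM in control, 1.96 in each alcohol library, and 3.52 and 2.57 in the co-treated libraries (−0.91 ± 0.22, adjusted p by edgeR 0.150). NCAPD2 and NCAPG, the other condensin I subunits in the list, were near the small end with −0.43 and −0.44. NCAPD2 stood at 17.2 ± 5.52 FPKM in control, 13.2 ± 3.81 in alcohol and 16.1 ± 2.11 in the co-treated libraries, and NCAPG at 8.64 ± 2.79, 6.54 ± 1.38 and 8.6 ± 1.73 FPKM. For both the alcohol and control libraries overlapped.

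Among the spindle proteins all 7 reached an unadjusted p of 0.05 in the lower direction, with a median log2 fold change of −0.73. NUSAP1, which bundles microtubules, was the most abundant at 33.9 ± 12.2 FPKM in control, 19.5 ± 4.33 in alcohol and 31.0 ± 3.73 in the co-treated libraries (SD, n = 2), and DLGAP5, a stabiliser of kinetochore fibres, stood at 20.0 ± 9.30, 11.5 ± 2.87 and 17.6 ± 3.36 FPKM. The motors KIF11 (−0.66), KIF2C (−0.73) and KIF4A (−0.69) and the spindle proteins HMMR (−0.63) and ASPM (−0.79) had similar log2 differences. Among the 5 genes of the central spindle and cytokinesis, ANLN, a scaffold of the contractile ring, read 36.8 and 60.4 FPKM in control, 28.03 and 26.4 in alcohol, and 43.0 and 36.3 in the co-treated libraries (−0.87 ± 0.18, adjusted p by edgeR 0.108). PRC1, which crosslinks the central spindle, stood at 30.6 ± 8.53 FPKM in control, 18.6 ± 2.74 in alcohol and 26.3 ± 5.34 in the co-treated libraries (−0.78 ± 0.18). KIF20A, KIF23 and ECT2 differed by −0.72, −0.52 and −0.47. KIF23, a motor of the central spindle, read 9.32 and 17.8 FPKM in control, 8.53 and 11 in alcohol, and 11.04 and 10.7 in the co-treated libraries.

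**Figure D3:**
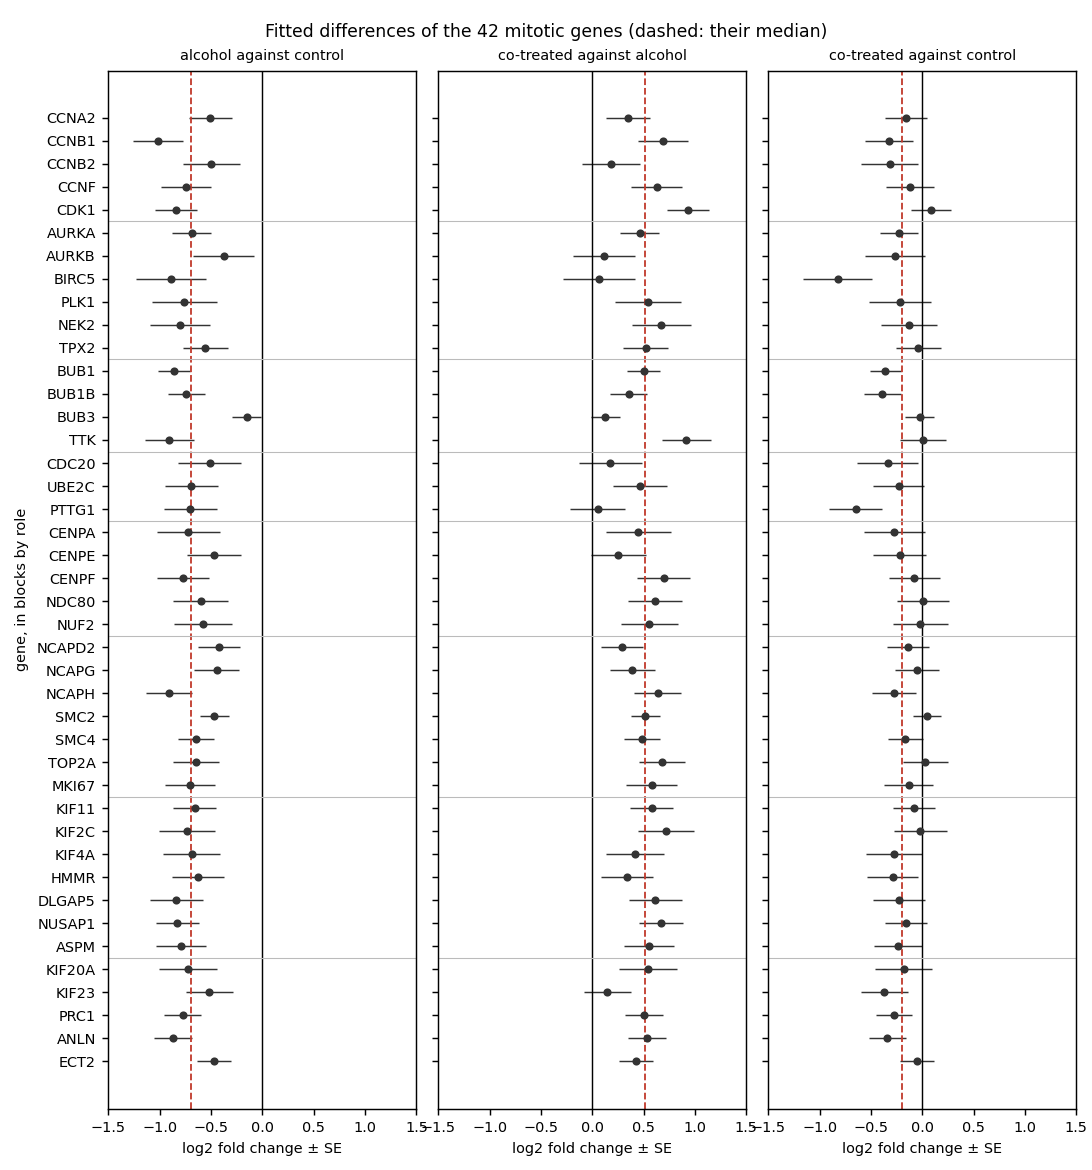
Log2 fold change of each of the 42 genes in the 3 comparisons, with the standard error of the edgeR fit and a line at 0. All 42 lie below 0 in alcohol against control, all 42 above 0 in co-treated against alcohol, and 37 below 0 in co-treated against control.

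The comparison of co-treated with alcohol asks how cells given losartan with alcohol differ from cells given alcohol alone. No library received losartan without alcohol, so a changed response to alcohol and an effect of losartan by itself cannot be told apart. This comparison uses the same alcohol libraries as the comparison above. All 42 members had a higher fitted level in the co-treated libraries, compared with 50.3% of all genes, with a median log2 fold change of 0.51, compared with 0.0023 over all genes. None passed the edgeR test at an adjusted p under 0.05, where 0.0134% of all genes did, and DESeq2 called none. At an unadjusted p under 0.05, 23 were higher, compared with 2.84% of all genes, and in 32 both co-treated libraries lay above both alcohol libraries, compared with 17.4%. The control libraries enter this comparison only through the shared estimate of the spread and the scaling, and its median stayed between 0.35 and 0.64 with any 1 library left out. The lowest of these values came without co-treated replicate 1, when 39 of the 42 were higher and 4 reached an unadjusted p of 0.05. Without alcohol replicate 1 the median was 0.38, with 36 of the 42 higher and 6 at that level.

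The highest values were those of CDK1, at 0.93 ± 0.20 on the log2 scale (adjusted p by edgeR 0.461), and TTK, at 0.91 ± 0.24 (adjusted p by edgeR 0.587). KIF2C, a motor that takes microtubules apart, followed with 0.71 ± 0.27, from 6.88 and 10.9 FPKM in alcohol and 16.6 and 12.3 in the co-treated libraries (9.68 and 18.6 in control), and CENPF with 0.69 ± 0.26. At the low end stood PTTG1 (0.05 ± 0.27), BIRC5 (0.06 ± 0.35), AURKB (0.11 ± 0.30) and BUB3 (0.13 ± 0.14), whose groups all overlapped. With PTTG1 at the low end, the 3 genes of the anaphase trigger had the smallest median of the 8 role groups, 0.18, and none of them reached an unadjusted p of 0.05. The condensin, topoisomerase and chromosome surface group had 5 of 7 genes at an unadjusted p under 0.05, and the spindle proteins 5 of 7.

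Against control, the co-treated libraries were near the controls for most members. The fitted level was lower in 37, compared with 50.2% of all genes, and higher in 5, with a median log2 fold change of −0.20, compared with −0.0017 over all genes. No member passed edgeR's test at an adjusted p under 0.05, where 0.362% of all genes did, and DESeq2 called none. At an unadjusted p under 0.05, 4 were lower (BIRC5, PTTG1, BUB1 and BUB1B), compared with 6.37% of all genes, and in 2 (BUB1 and BUB1B) both co-treated libraries lay below both controls, compared with 21.7%. BIRC5 had a log2 fold change of −0.83 ± 0.34 and PTTG1 one of −0.65 ± 0.26. The 5 higher genes were CDK1 (0.09), SMC2 (0.05), TOP2A (0.03), NDC80 (0.01) and TTK (0.01), all smaller than their standard errors. The sign of this comparison depended on the control library, since the median was 0.23 without control replicate 2, with 5 genes lower, and −0.51 without control replicate 1, with all 42 lower.

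**Figure D4:**
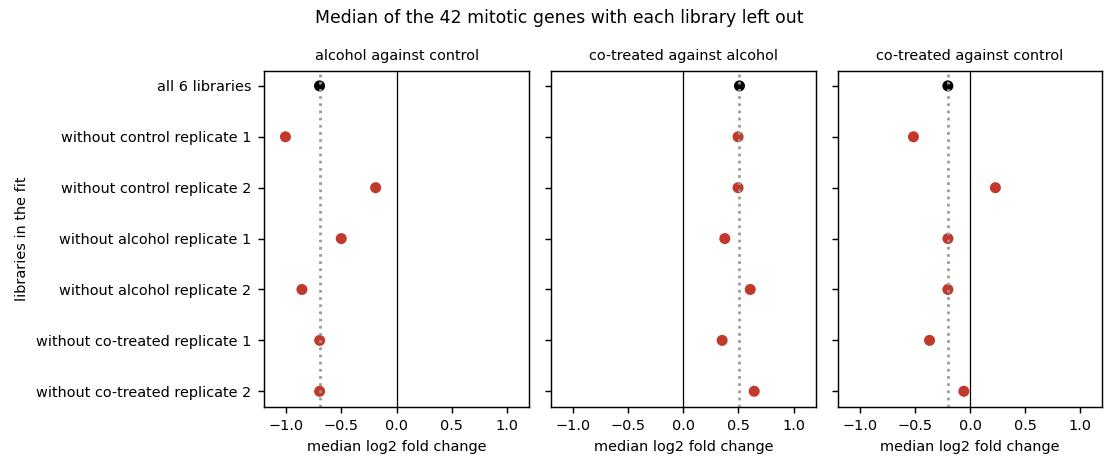
Median log2 fold change of the 42 genes in each comparison with all libraries and with each library left out in turn. In co-treated against control the median runs from −0.51 to 0.23, and in co-treated against alcohol from 0.35 to 0.64.

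Other genes of cell division were counted from lists of their own, in which none was called in alcohol against control by edgeR. In that comparison 50.6% of all genes tested were lower, 5.78% were lower at an unadjusted p under 0.05 and 0.067% were called. Of 30 other genes of the spindle, motors and cytokinesis, 29 were lower in alcohol and 22 reached an unadjusted p of 0.05, with a median log2 fold change of −0.62. The lowest of them was KIFC1, a minus-end motor, at 13.4 ± 3.93 FPKM in control and 6.57 ± 1.05 in alcohol (−1.07 ± 0.21, adjusted p by edgeR 0.0916), and the highest HAUS1, a subunit of the augmin complex (0.05). Of 38 other kinetochore and centromere genes, 34 were lower and 14 reached that level, from SKA3 (−1.08) to MIS12 (0.19), both outer kinetochore proteins, with a median of −0.43. Of 14 regulators of mitotic entry and exit, 13 were lower and 4 reached it, from the phosphatase CDC25C, an activator of CDK1 (−1.03), to ENSA, an inhibitor of the phosphatase PP2A (0.05).

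A pair of lists had medians close to 0. Their counts stand beside 50.6% of all genes lower in alcohol, and 5.78% lower at an unadjusted p under 0.05. Of 27 other genes of condensin, cohesin and the APC/C, 16 were lower, 5 at an unadjusted p under 0.05, with a median of −0.05 and extremes in the condensin II subunits NCAPG2 (−0.76) and NCAPH2 (0.17). Of 19 transcription factors and cofactors of this phase, 11 were lower and 3 reached that level, with a median of −0.04. Among these MYBL2, the B-Myb activator, had a log2 fold change of −0.86 and LIN37, a subunit of DREAM, one of 0.39. Promoters were matched for only a part of each list. CHR letters were present in 70.8% of 24 promoters of the other spindle genes and 51.6% of 31 of the other kinetochore genes. The share was 40% of 10 in the regulators of entry and exit and 28% of 25 in the other condensin, cohesin and APC/C genes. It was 18.8% of 16 in the transcription factors, 9.09% of 11 in the G1 cyclins, CDKs and CDK inhibitors and 7.69% of 26 in the replication genes.

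The genes of DNA replication, which act earlier in the cell cycle, had 28 of 30 lower in alcohol and 14 at an unadjusted p under 0.05, with a median of −0.35, from POLE, a replicative polymerase subunit (−0.69), to CDC45, a part of the replicative helicase (0.12). Their summed CPM in control replicate 2 was 1.10 times that in control replicate 1, where the ratio was 1.72 for the 42 members. The other spindle genes had a ratio of 1.45 and the other kinetochore genes one of 1.31. Of 16 G1 cyclins, CDKs and CDK inhibitors, 15 were tested and 10 were lower, 3 at an unadjusted p under 0.05, from CDKN2C (−0.69) to CDK4 (0.22). The shares over all genes were 50.6% lower and 5.78% lower at that level.

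In co-treated against alcohol, 29 of the 30 other spindle genes, 35 of the 38 other kinetochore genes and 27 of the 30 replication genes were higher, with 12, 13 and 7 at an unadjusted p under 0.05 and none called. Over all genes, 50.3% were higher and 2.84% were higher at that level. In co-treated against control, where 0.362% of all genes were called, 1 gene of these lists was called, CDKN1A, the p53 target p21 that restrains CDKs. It read 99.3 and 114 FPKM in control, 78.7 and 71.4 in alcohol, and 62.7 and 65.6 in the co-treated libraries. Both co-treated libraries lay below the other 4, and the log2 fold change was −0.78 ± 0.12 (adjusted p by edgeR 0.0203, range over the alternatives 0.000131 to 0.286). The call was lost without control replicate 2, co-treated replicate 1 or co-treated replicate 2, with adjusted p by edgeR of 0.128, 0.157 and 0.286.

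**Figure D5:**
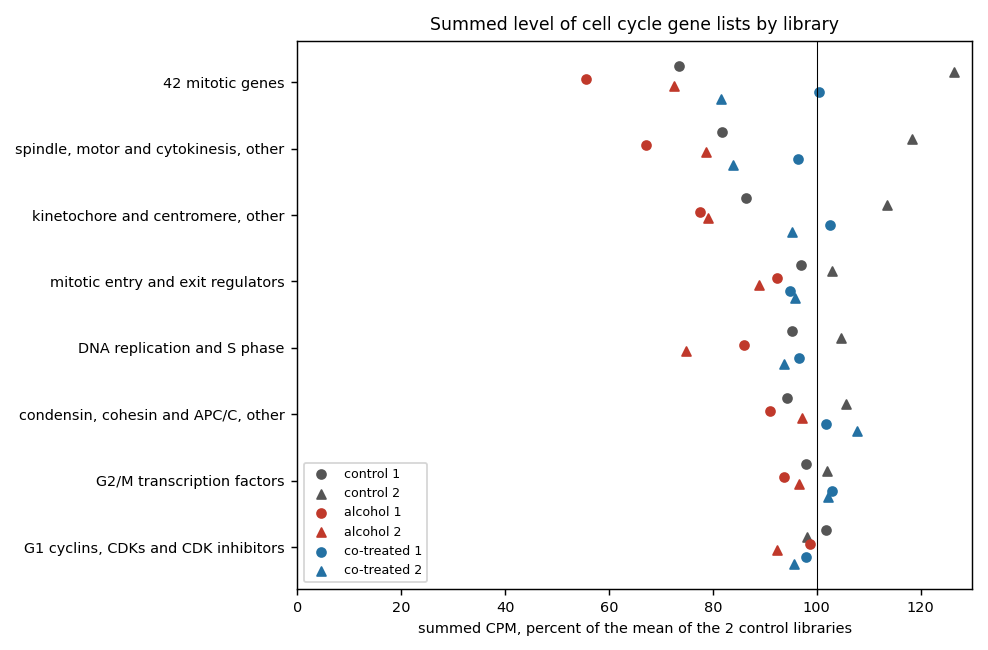
Summed level of each gene list in the 6 libraries, as a percentage of the mean of its 2 control libraries. The 42 genes have control replicate 2 on top, while the replication genes differ less between the control libraries (1.10-fold compared with 1.72-fold).

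Markers of other cells that such cultures can hold were summed in the same libraries, in CPM. The sum of the 5 smooth muscle markers was lower in all 4 treated libraries than in both controls, with 2297 to 2633 in control, 1012 to 2032 in alcohol and 1418 to 1439 in the co-treated libraries. Over the libraries ACTA2 read 203 to 580 FPKM, TAGLN 340 to 998 and CNN1 177 to 422, but MYH11 only 1.71 to 4.77 and SMTN 8.13 to 13.3. Which cells in the cultures these transcripts came from was not tested. All 5 had a lower fitted level in alcohol than in control, 3 at an unadjusted p under 0.05, compared with 50.6% and 5.78% of all genes. In co-treated against control, where 0.362% of all genes were called, ACTA2, smooth muscle actin, was called lower (−1.25 ± 0.20 on the log2 scale, adjusted p by edgeR 0.0203). ACTA2 read 507 and 580 FPKM in control, 337 and 203 in alcohol, and 248 and 224 in the co-treated libraries. Its call was lost without either co-treated library, with adjusted p by edgeR of 0.157 and 0.349. The 10 fibroblast and epicardial markers summed to 2326 to 2583, 2705 to 2893 and 2620 to 2924, and both treated groups lay above control in this sum. COL1A1 read 112 to 160 FPKM, COL1A2 89.5 to 140 and COL3A1 145 to 188, while TCF21 and WT1 stayed at or below 0.89. Of the 8 tested in alcohol against control, 6 were higher, 0 of them at an unadjusted p under 0.05 by edgeR, and 2 lower, 1 at that level. In co-treated against control 7 were higher, 2 at that level, and 1 lower. The summed CPM of the 5 endothelial markers separated all 3 groups, at 34.7 to 39.3 in control, 43.5 to 50.9 in alcohol and 52.1 to 61.9 in the co-treated libraries. KDR read 3.7 to 7.7 FPKM, while PECAM1, CDH5 and VWF stayed at or below 0.78 FPKM. Of the 4 endothelial markers tested in alcohol against control, 2 were lower and 2 higher, with a median log2 fold change of 0.016. In co-treated against alcohol all 4 were higher. The 6 markers of pluripotent cells summed to 37.9 to 39.4, 36.4 to 42.3 and 34.7 to 54.8, with SOX2 at 0 in 2 libraries. The 7 endoderm and liver-like markers summed to 65.1 to 67.7, 82.4 to 83.6 and 78.8 to 85.6, with FOXA2 at 0 in 4 libraries and SOX17 in 2, and VWF among the endothelial markers was at 0 in 1. Among the endoderm markers AFP read 20.35 to 28.39 FPKM and APOA1 13.05 to 22.32, and all others stayed at or below 2.8. Only 4 of the 7 were tested, of which 3 were higher and 1 lower in alcohol against control. The part that these cells have in the values of the mitotic genes was not tested.

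A few members share sequence or position with other listed genes. BUB1B-PAK6, a read-through transcript, held 11.8 to 30.7 counts per library, KIF4B, a copy of KIF4A, at most 1.17, and AURKAPS1, a pseudogene of AURKA, 1.11 to 9.58. By the RefSeq annotation of GRCh38.p14, 11 members overlap a gene with counts in these files, among them KIF20A with CDC23, ANLN with MATCAP2, NCAPG with LCORL and CCNA2 with EXOSC9. Whether the kit kept the strand is not given in the sources used here, so reads in those overlaps could have been counted for either gene.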

How the data were processed

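RNA was sequenced from 6 libraries of H9-derived cardiomyocytes, 2 in each of 3 groups taken from the treatment in the sample labels. Each deposited expected count is an estimate made by the authors of a gene's reads, not always a whole number (33.6% to 34.2% of the values per library are not). The deposited FPKM is this estimate after the authors scaled it to transcript length and depth. The submitters' processing notes name HISAT2 2.0.4, Bowtie2 2.2.5, RSEM 1.2.12 and the build hg38, without their roles or order. A gene without a row in a library was set to 0.

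The expected counts were rounded to whole numbers and tested with edgeR 4.0.16 (R 4.3.3): TMM, filterByExpr, 1 quasi-likelihood fit over all 6 libraries, two-sided F tests and Benjamini-Hochberg adjustment at 0.05 over 14926 genes. All 42 members passed the filter. SE was taken as the absolute log2 fold change over the square root of F. The fit was tested on simulated counts drawn independently for each gene. These hold no shift shared by genes within a library, so they cannot show how the fit treats one. An exact permutation test of 2 against 2 libraries cannot give a two-sided p below 0.333, so none is given. Alternatives were DESeq2 1.42.0, other size factors, no filter, at least 10 counts in every library, limma 3.58.1 on log2(FPKM + 1) and log2(FPKM + 0.1), the replicate number as a block, the libraries of the 2 groups alone, and each library left out. Promoters and overlaps came from RefSeq (GRCh38.p14).

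The members and the lists of other genes were chosen with earlier results of these data known. Library or group values were given for members called in any comparison, the 4 highest and 4 lowest log2 fold changes in each, the 2 most abundant members of each role group, and MKI67, TOP2A, CDK1, CCNB1, AURKB, PLK1, BIRC5 and CENPA. From each list of other cell cycle genes the called gene was given with its values, and otherwise the highest and lowest log2 fold change in alcohol against control. ACTA2 was named as the called gene among the cell type markers, after its values were seen. KNL1, PIMREG and HASPIN were read under the older symbols CASC5, FAM64A and GSG2. The remaining members are given by log2 fold change to account for all 42. Overlapping genes were named after their values were seen.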

Additional observations from a re-analysis of the deposited data

How the results depend on the processing

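In alcohol against control, the median of the 42 genes stayed between −0.56 and −0.70 on the log2 scale under every alternative that kept all libraries of both groups. Leaving out 1 library gave −1.01 (without control replicate 1) to −0.19 (without control replicate 2). The number of members called, 0 by edgeR, was 3 with DESeq2, 1 with at least 10 counts in every library, 1 with the replicate block and 0 to 20 with a library left out. Of the other cell division genes, none was called, compared with 2 with DESeq2 and 1 with the replicate block. In co-treated against control, the median ran from −0.51 to 0.23 with a library left out. The other lists held 1 called gene, CDKN1A, and held 0 with no filter, 0 with limma at either pseudocount and 0 to 1 with a library left out. The members at an unadjusted p under 0.05 numbered 34, 23 and 4 by edgeR in the comparisons in the order of the text, compared with 22, 13 and 0 by DESeq2 and 17, 10 and 0 by limma on log2(FPKM + 1). For the named genes, 747 of 784 alternative values in alcohol against control kept their direction and side of the threshold, 28 became called and 9 turned in sign, all of these with a library left out. The leave-out ranges of those genes were −0.88 to 0.0096 for KIF23, −0.97 to 0.0071 for NUF2, −0.71 to 0.038 for AURKB, −0.93 to 0.022 for CCNB2, −0.88 to 0.056 for CENPE, −0.36 to 0.49 for CDC45, −1.33 to 0.56 for CDKN2C and −0.023 to 0.15 for HAUS1. In co-treated against alcohol 6 of 112 turned, for PTTG1 (−0.23 to 0.28), BIRC5 (−0.33 to 0.58), AURKB (−0.17 to 0.45) and BUB3 (−0.0021 to 0.25). In co-treated against control 145 of 168 kept their direction and side of the threshold. There 11 values lost the call, all for CDKN1A and ACTA2, and 1 became called, for BIRC5. A further 11 turned in sign, for TOP2A (−0.34 to 0.53), CDK1 (−0.22 to 0.48), SMC2 (−0.070 to 0.16), NDC80 (−0.38 to 0.54), TTK (−0.32 to 0.43) and KIF23 (−0.75 to 0.14). Where a library is left out, the lone sample of its group is assumed to vary like the other groups. The cause was not tested.

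The replicate numbers were not shown to pair the libraries. Across genes the replicate differences of control correlated with those of alcohol at 0.114 and with those of co-treated at −0.016, and those of alcohol with those of co-treated at 0.041. With the replicate block, 48 of all genes were called in alcohol against control compared with 10 without it, BUB1 (adjusted p by edgeR 0.0310) and KIFC1 (0.0359) among them, and no call of a member changed in the other comparisons. The number of all genes called moved over 1.5-fold with the tool: 72, 5 and 123 by DESeq2 in the 3 comparisons in the order of the text, compared with 10, 2 and 54 by edgeR, and 0, 1 and 2 by limma on log2(FPKM + 1). No group has enough samples for a test of outlying libraries.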
